A study of Mus musculus with 6 samples.

Results

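Lysyl oxidases and the proteins of the elastic fiber were examined in the adipocyte fraction of mice with and without a deletion of PU.1 in adipocytes. The 10 genes were the 5 lysyl oxidases Lox, Loxl1, Loxl2, Loxl3 and Loxl4, the fibrillins Fbn1 and Fbn2, elastin (Eln), fibulin-5 (Fbln5) and Emilin1. They were found in the deposited table by the Ensembl identifier of each symbol, and all 10 were among its 35122 genes. The set was chosen by the measured log2 fold changes of Loxl2 and Fbn1, whose RNA was lower in the mice with the deletion. The values of those genes between the groups are therefore a description and carry no test.

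RNA came from epididymal fat of male C57BL/6 mice on chow, aged 10 to 11 months by the sample labels, whereas the text of the study describes them as older than a year. Fat pads were digested with collagenase, and the layer that rose to the top was kept as adipocytes. The control group was 3 PU.1 fl/fl mice and the aPU.1KO group was 3 AdipoqCre PU.1 fl/fl mice, with 1 library per mouse. Both groups carried the floxed Spi1 gene, which encodes the transcription factor PU.1, and differed in a Cre driven by adiponectin regulatory sequence, which is active in adipocytes and not in the other cells of fat. The study describes its controls as littermates, and the labels do not tie single mice to litters. The control mice carried no Cre, so the effect of Cre itself and that of the deletion cannot be told apart.

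Lysyl oxidases are secreted, copper-dependent enzymes that oxidize lysine side chains of elastin and collagen, after which neighbouring chains join into covalent cross-links. Fibrillins assemble into microfibrils, the scaffold on which elastin is laid down, and also hold the latent complexes of TGF-β in the matrix. Fibulin-5 links elastin to cells and to the cross-linking enzymes, and Emilin1 sits where elastin meets the microfibril. In fat this matrix surrounds each adipocyte and is made to a large part by progenitors and fibroblasts, and Fbn1 also encodes asprosin, a hormone cut from the end of profibrillin-1.

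The lysyl oxidases share a catalytic end, and the stretch of 60 coding bases in which Loxl1, Loxl2, Loxl3 and Loxl4 were most alike is shown because it bears on how well reads of these genes can be told apart. Capitals mark the 40 bases that were identical in all 4 genes. The stretches lie in coding exons of the GRCm38 annotation, at chr9:58293619-58293678 on the minus strand (exon 4 of 7 in Loxl1), chr14:69689076-69689135 on the plus strand (exon 11 of 14 in Loxl2), chr6:83050164-83050223 on the plus strand (exon 11 of 14 in Loxl3) and chr19:42598709-42598768 on the minus strand (exon 12 of 15 in Loxl4).
Loxl1: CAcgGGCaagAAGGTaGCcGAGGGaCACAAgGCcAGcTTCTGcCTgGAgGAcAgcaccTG
Loxl2: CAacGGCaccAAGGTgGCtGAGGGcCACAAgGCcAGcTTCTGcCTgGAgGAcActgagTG
Loxl3: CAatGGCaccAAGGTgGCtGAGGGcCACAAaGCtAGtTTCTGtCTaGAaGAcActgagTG
Loxl4: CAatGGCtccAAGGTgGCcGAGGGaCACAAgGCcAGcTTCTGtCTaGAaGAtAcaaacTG

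Over their whole coding sequences, Loxl2 and Loxl3 were identical at 62.5% of aligned bases, Loxl2 and Loxl4 at 62.8%, Lox and Loxl1 at 58.4%, and the fibrillins Fbn1 and Fbn2 at 68.5%. Over the transcripts of all 45 pairs of members, the longest run of bases shared on the same strand was 32, between Lox and Loxl1. The runs shared by Fbn1 and Fbn2 and by Loxl2 and Loxl3 were at most 26 bases long.

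The substrate has a plain signature in its own sequence. Of the 860 codons of Eln, 38 encoded lysine, and in 12 places a pair of lysine codons stood 2 or 3 alanine codons apart, the spacing of the cross-linking regions of elastin. No other member held such a pair. The 20 codons of Eln richest in lysine and alanine are shown to make the target of the oxidases visible, with the lysine codons in capitals. They lie at chr5:134707822-134707881 on the minus strand of GRCm38, in exon 30 of 37, and 14 of the 20 codons encode alanine.
Eln: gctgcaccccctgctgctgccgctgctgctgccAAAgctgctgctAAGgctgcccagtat

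The libraries held 20550252 to 24310144 counts, apart from control mouse 1 with 69283842. Spi1, the targeted gene, ranged from 6.35 to 26.7 CPM (counts per 1000000 of the scaled library size) in the control mice and from 1.22 to 4.17 CPM in the aPU.1KO mice, and its log2 fold change was -2.75 (standard error 0.64, adjusted p = 0.0788 in edgeR's quasi-likelihood test and 7.38e-05 in DESeq2). The counts are per gene, so reads from Spi1 exons that are not floxed are included, and Spi1 is also expressed by macrophages. The adipocyte markers Adipoq, Plin1, Cidec, Lep and 6 others summed to 17100 to 19129 CPM in the control and 20372 to 24945 CPM in the aPU.1KO mice, and none of the 10 was at 0. The fraction was not free of other cells, and the sums of the other marker lists are given with the results below.

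Per kilobase of exon, the scale on which genes can be set beside each other, Lox was the most abundant member in the adipocyte fraction of control mice. Its level was 29.9 ± 7.31 CPM per kilobase (SD, n = 3), above that of 89.9% of the genes tested. Loxl1, the oxidase closest to Lox, followed at 11.0 ± 1.05 CPM per kilobase, and Fbln5 at 7.94 ± 0.631. Fbn1 at 5.68 ± 1.34 and Loxl2 at 5.20 ± 0.950 CPM per kilobase overlapped between mice and had no clear order.

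Emilin1 at 2.72 ± 0.630 and Eln at 2.69 ± 0.234 CPM per kilobase overlapped as well. Loxl4 stood at 1.87 ± 0.0328 and Loxl3 at 0.792 ± 0.266 CPM per kilobase. Fbn2 was at 0.00343 CPM per kilobase. All neighbours in this order other than those 2 pairs were separated in the 3 control mice.

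The order rests on the length given to each gene. Eln has 8098 bases of merged exons but 3853 in its longest transcript, and with the latter its mean rose from 2.69 to 5.66 CPM per kilobase and its place from 7 to 5. Lox, Loxl1, Fbln5 and Fbn1 kept places 1 to 4 with either length. In the aPU.1KO mice the means kept the same order for places 1 to 5, while Emilin1 moved from place 6 to place 8, behind Eln and Loxl4. The means at places 4 to 8 were close, from 1.51 to 1.23 CPM per kilobase, and the order differed between mice. In aPU.1KO mouse 3 Fbln5 was above Loxl1, and Loxl4 and Eln were above Fbn1 and Loxl2. In aPU.1KO mouse 2 Emilin1 was above Eln and Loxl4.

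**Figure D1:**
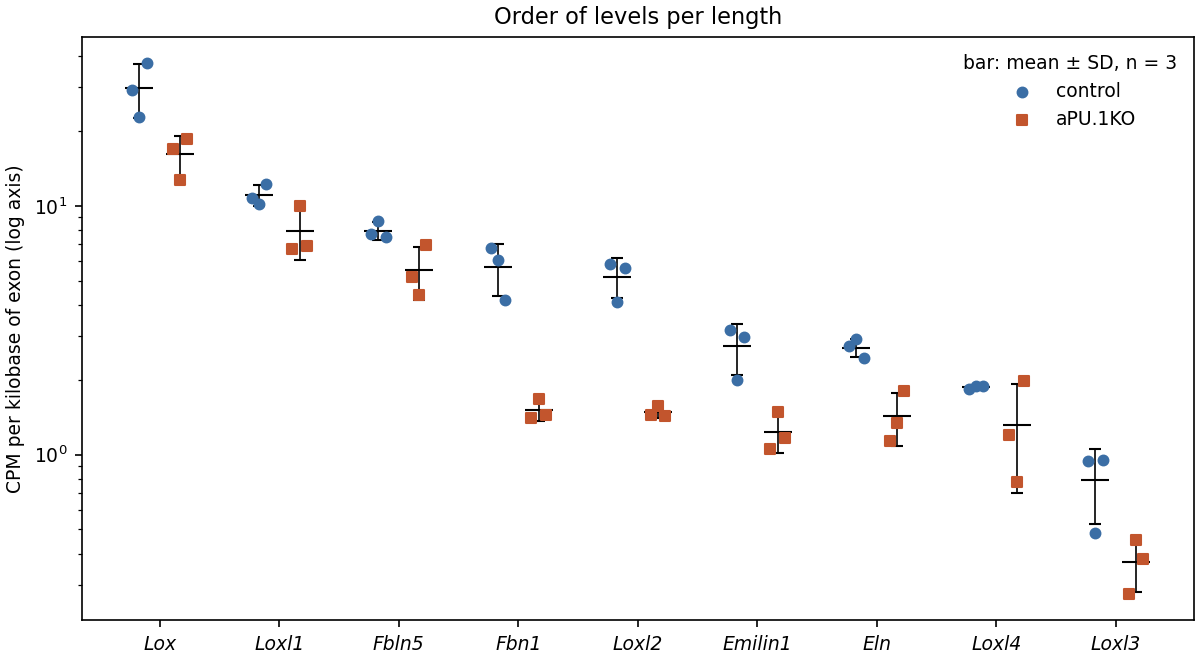
Level of the 9 members other than Fbn2 in CPM per kilobase of merged exon (log axis), ordered by the control mean; each point is a mouse and bars are the mean ± SD of 3. Lox is highest in both groups (29.9 and 16.1 CPM per kilobase) and Loxl3 lowest (0.792 and 0.369).

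In the comparison of the groups, 9 of the 10 members had enough counts to be tested, and these 9 had a negative log2 fold change of aPU.1KO over control, as did 48.0% of the 13925 genes tested. Their median was -0.91, beside 0.01 over all genes tested. At an adjusted p below 0.05 the members called lower were 2, Loxl2 and Fbn1, which are the genes the set was picked for, where 0.18% of all genes tested were called lower and 0.0575% higher. At an unadjusted p below 0.05 the number was 8 of 9, where 13.7% of all genes were lower and 11.9% higher. In 8 of 9 all aPU.1KO values lay under all control values, which held for 15.5% of all genes. With the DESeq2 test, which the study's methods name, 6 members were lower at an adjusted p below 0.05, where 7.87% of 16100 genes were lower and 3.73% higher. All these counts and the median include Loxl2 and Fbn1, whose fall was given by the choice of the set. Apart from them, the genes lower at an unadjusted p below 0.05 and separate were Lox, Loxl1, Loxl3, Eln, Fbln5 and Emilin1. Those called by DESeq2 were Lox, Loxl3, Eln and Emilin1, and edgeR called none after adjustment. In edgeR the 2 members called became 0 without control mouse 1 or without any single aPU.1KO mouse, 1 without control mouse 3 and 5 without control mouse 2. Over all genes, 0 of 14020 were called lower without control mouse 1 and 2 of 14021 without control mouse 3. Without control mouse 2 the number was 991 of 14306 (6.93%), and each fit without 1 aPU.1KO mouse called 3 lower. In bulk RNA, fewer cells of a type and less RNA per cell cannot be told apart, for these and all later values.

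Among the oxidases, Loxl2 stood furthest apart. Loxl2 (ENSMUSG00000034205; chr14:69609068-69695834, GRCm38) encodes an oxidase with scavenger receptor domains that cross-links collagen IV and fibrillar collagen. It was at 31.5, 22.2 and 30.5 CPM in control mice 1, 2 and 3, and at 7.83, 8.50 and 7.72 CPM in aPU.1KO mice 1, 2 and 3. The lowest control mouse was 2.61 times the highest aPU.1KO mouse, and the aPU.1KO values differed little from each other, with a coefficient of variation of 5.26% against 18.3% in the control. The log2 fold change was -1.81 (standard error 0.16), and with each mouse left out in turn it lay between -1.96 and -1.73.

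Lox (ENSMUSG00000024529; chromosome 18), the founding member of the family, was at 139.8, 109.2 and 178.9 CPM in the control and at 81.0, 60.9 and 88.8 CPM in the aPU.1KO mice. Control mouse 2 was the lowest of its group and still above all 3 aPU.1KO mice. On the log2 scale the difference was -0.89 (standard error 0.21, adjusted p = 0.0803 in edgeR and 0.00208 in DESeq2). The call thus differed between the tests.

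Loxl1 (ENSMUSG00000032334; chr9:58287738-58313186) encodes the oxidase that is targeted to elastin and needed to renew it in the adult. It was at 35.4, 33.5 and 40.2 CPM in the control and at 22.2, 33.0 and 22.8 CPM in the aPU.1KO mice. The groups were separate by a narrow margin, since aPU.1KO mouse 2 nearly reached control mouse 2. Loxl1 did not pass in either test (log2 fold change -0.48, standard error 0.17, adjusted p = 0.143 in edgeR and 0.0745 in DESeq2).

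Loxl3 (ENSMUSG00000000693; chr6:83034173-83052562) was the least abundant oxidase, at 4.34, 2.23 and 4.36 CPM in the control and 1.27, 2.08 and 1.75 CPM in the aPU.1KO mice. These values rest on 110 counts or fewer in 5 of the 6 libraries, with 25 in aPU.1KO mouse 1, and control mouse 2 was only just above aPU.1KO mouse 2. Its log2 fold change was -1.10 (standard error 0.34, adjusted p = 0.113 in edgeR and 0.0345 in DESeq2). Loxl3 shares 535 bases of exon with Htra2 on the other strand, a gene whose groups overlapped at 18.9 ± 5.47 CPM in the control and 18.2 ± 1.94 CPM in the aPU.1KO mice (SD, n = 3).

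Loxl4 (ENSMUSG00000025185; chr19:42593982-42612813) was the exception among the members tested. It was at 7.71, 7.92 and 7.97 CPM in the control, the tightest group of any member, and at 5.03, 3.25 and 8.34 CPM in the aPU.1KO mice. The groups overlapped, because aPU.1KO mouse 3 was above all 3 control mice while the other aPU.1KO mice were below them. Its log2 fold change was -0.51 (standard error 0.32, adjusted p = 0.360 in edgeR), which ran from -0.92 without aPU.1KO mouse 3 to -0.24 without aPU.1KO mouse 2.

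**Figure D2:**
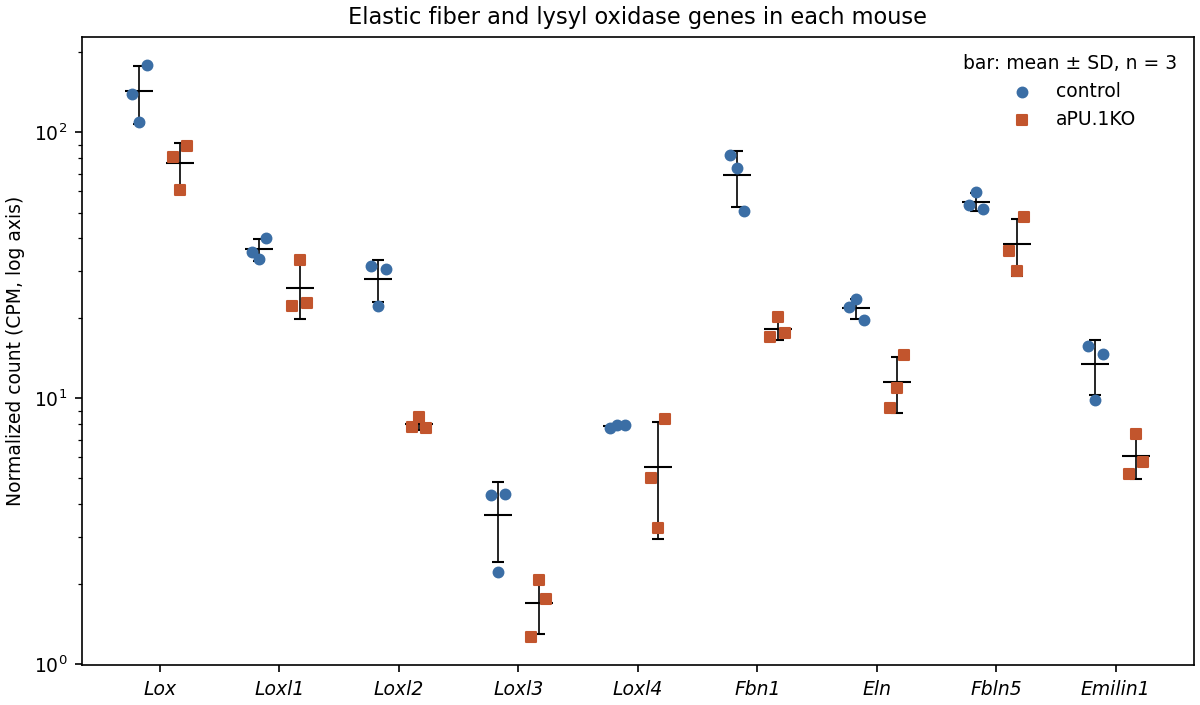
Normalized count (CPM, log axis) of the 9 members tested, for the 3 control mice (circles) and the 3 aPU.1KO mice (squares), with the mean ± SD of each group. The groups are separate for all genes shown apart from Loxl4, and furthest apart for Loxl2 and Fbn1, whose aPU.1KO means are 28.5% and 26.6% of the control.

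Among the fiber proteins, Fbn1 was the member with the lowest log2 fold change. Fbn1 (ENSMUSG00000027204; chr2:125300594-125507993) encodes fibrillin-1, the main protein of adult microfibrils. It was at 82.2, 73.8 and 50.7 CPM in the control and at 17.1, 20.3 and 17.6 CPM in the aPU.1KO mice. Control mouse 3 was the lowest of its group and was 2.50 times the highest aPU.1KO mouse. The log2 fold change was -1.91 (standard error 0.19), between -2.10 and -1.78 with each mouse left out. An annotated gene on the other strand, Gm9913, shares 2442 bases of exon with Fbn1, but it held at most 9 counts in any library against 336 or more for Fbn1.

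Fbn2 (ENSMUSG00000024598; chromosome 18), the fibrillin of embryonic tissue, was barely detected. Its counts were 7, 0 and 1 in the control and 2, 1 and 1 in the aPU.1KO mice, so that 5 of 6 libraries held 3 counts or fewer. It was not tested and no fold change is given. Fibrillin RNA in these samples was therefore almost wholly Fbn1 in both groups.

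Eln (ENSMUSG00000029675; chr5:134702593-134747323), the elastin gene, was at 22.1, 23.6 and 19.8 CPM in the control and at 9.20, 10.9 and 14.6 CPM in the aPU.1KO mice. The groups did not overlap, and aPU.1KO mouse 3 was closest to the control. For Eln the log2 fold change was -0.91 (standard error 0.18, adjusted p = 0.0760 in edgeR and 0.000362 in DESeq2).

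Emilin1 (ENSMUSG00000029163; chr5:30913402-30921277), which also restrains the maturation of TGF-β, was at 15.7, 9.89 and 14.7 CPM in the control and at 5.18, 7.32 and 5.78 CPM in the aPU.1KO mice. The groups did not overlap, with control mouse 2 the lowest of the control. The log2 fold change was -1.14 (standard error 0.22, adjusted p = 0.0759 in edgeR and 0.000191 in DESeq2).

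Fbln5 (ENSMUSG00000021186; chr12:101746565-101819055) had one of the smaller differences. It was at 53.3, 59.8 and 51.6 CPM in the control and at 35.8, 30.2 and 48.1 CPM in the aPU.1KO mice, where mouse 3 came close to the lowest control mouse. On the log2 scale Fbln5 differed by -0.53 (standard error 0.17) and did not pass in edgeR (adjusted p = 0.121) or DESeq2 (adjusted p = 0.0548).

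**Figure D3:**
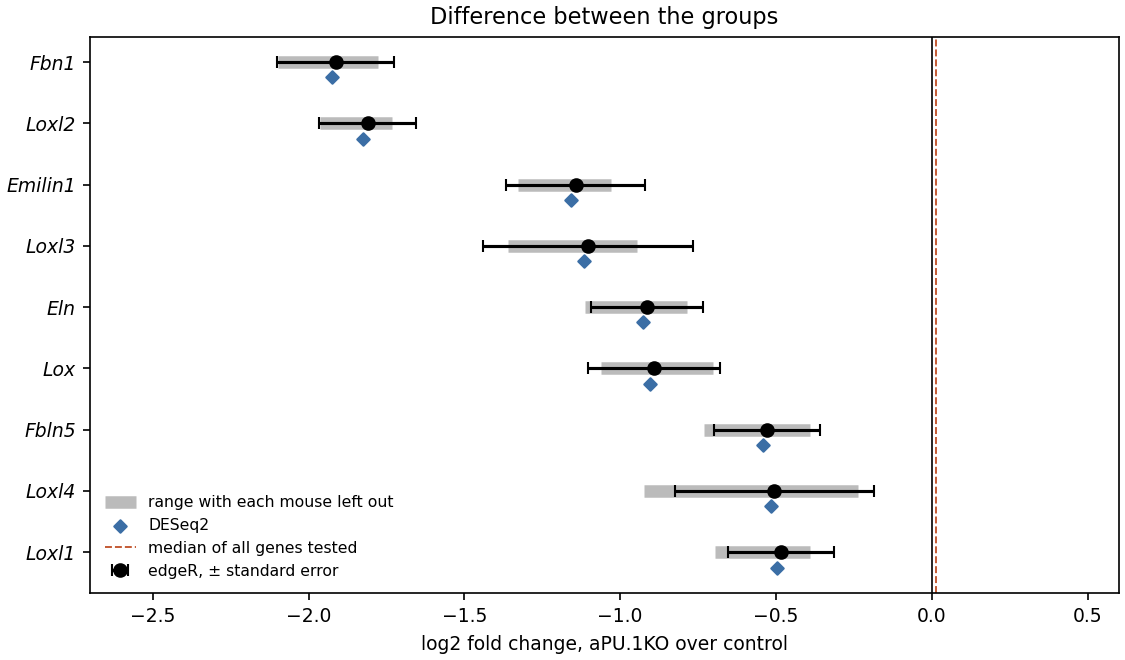
Log2 fold change of aPU.1KO over control for the 9 members tested: black points with ± standard error are from edgeR, diamonds from DESeq2, and grey bars span the values with each mouse left out. Every value and every grey bar lies below 0, and the dashed line is the median of all genes tested (0.01); the fall of Fbn1 and Loxl2 is what the set was picked for.

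The members did not keep their proportions. Of the summed level of the 5 oxidases per kilobase, Loxl2 made up 12.0%, 10.4% and 9.72% in control mice 1, 2 and 3 and 5.44%, 6.15% and 4.88% in the aPU.1KO mice, without overlap, which follows from the choice of Loxl2. The share of Lox, 60.8% ± 3.31 in the control and 59.0% ± 7.92 in the aPU.1KO mice (SD, n = 3), overlapped between the groups, as did the shares of Loxl1, Loxl3 and Loxl4. The summed level of the oxidases was 48.7 ± 9.31 CPM per kilobase in the control and 27.2 ± 1.92 in the aPU.1KO mice.

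Of the fiber proteins, Fbn1 made up 33.2%, 31.0% and 24.5% of the summed level per kilobase in the control and 16.0%, 18.8% and 12.7% in the aPU.1KO mice. Fbln5 made up 37.8%, 44.1% and 43.7% in the control and 59.0%, 49.3% and 61.1% in the aPU.1KO mice, which again follows from the choice of Fbn1. With Fbn1 left out of the sum, the share of Fbln5 overlapped, at 56.6%, 63.8% and 57.9% in the control and 70.2%, 60.7% and 70.1% in the aPU.1KO mice. The share of Eln in the full sum overlapped, at 14.2% ± 0.733 and 14.6% ± 1.51, but with Fbn1 left out it was 19.0% to 21.4% in the control and lower without overlap in the aPU.1KO mice, at 15.4%, 18.7% and 18.1%. The sum of the fiber proteins was 19.0 ± 1.74 CPM per kilobase in the control and 9.68 ± 1.48 in the aPU.1KO mice.

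Ratios of counts within each mouse do not depend on library size. Fbn1 counts were 3.14 ± 0.581 times those of Eln in the control and 1.64 ± 0.377 times in the aPU.1KO mice, without overlap. Counts of Loxl2 were 0.200 ± 0.0276 of those of Lox in the control and 0.108 ± 0.0279 in the aPU.1KO mice, also without overlap. Loxl2 over Loxl1 (0.771 ± 0.115 and 0.316 ± 0.0517), Loxl2 over Loxl3 (8.07 ± 1.63 and 4.88 ± 1.12) and Fbn1 over Fbln5 (1.25 ± 0.280 and 0.504 ± 0.154) were lower without overlap too, so that 5 of the 7 ratios computed were apart, each with Loxl2 or Fbn1 on top as the choice of these genes implies. The remaining 2 ratios overlapped between the groups: Loxl2 over Fbn1 was 0.429 ± 0.156 and 0.439 ± 0.0193, and Lox over Eln was 6.67 ± 2.22 and 6.83 ± 1.73.

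Within a group the members did not vary as a block. Control mouse 2 was below its group mean by 0.63 on the log2 scale for Loxl3, by 0.41 for Emilin1, by 0.36 for Lox and by 0.32 for Loxl2, whereas it was above the mean by 0.13 for Fbn1, 0.13 for Fbln5 and 0.11 for Eln. Fbn1 was instead lowest in control mouse 3, by 0.41. Among the aPU.1KO mice, mouse 3 was above its group mean by 0.69 for Loxl4, 0.37 for Fbln5 and 0.36 for Eln, and mouse 2 by 0.37 for Loxl1 and 0.31 for Loxl3.

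**Figure D4:**
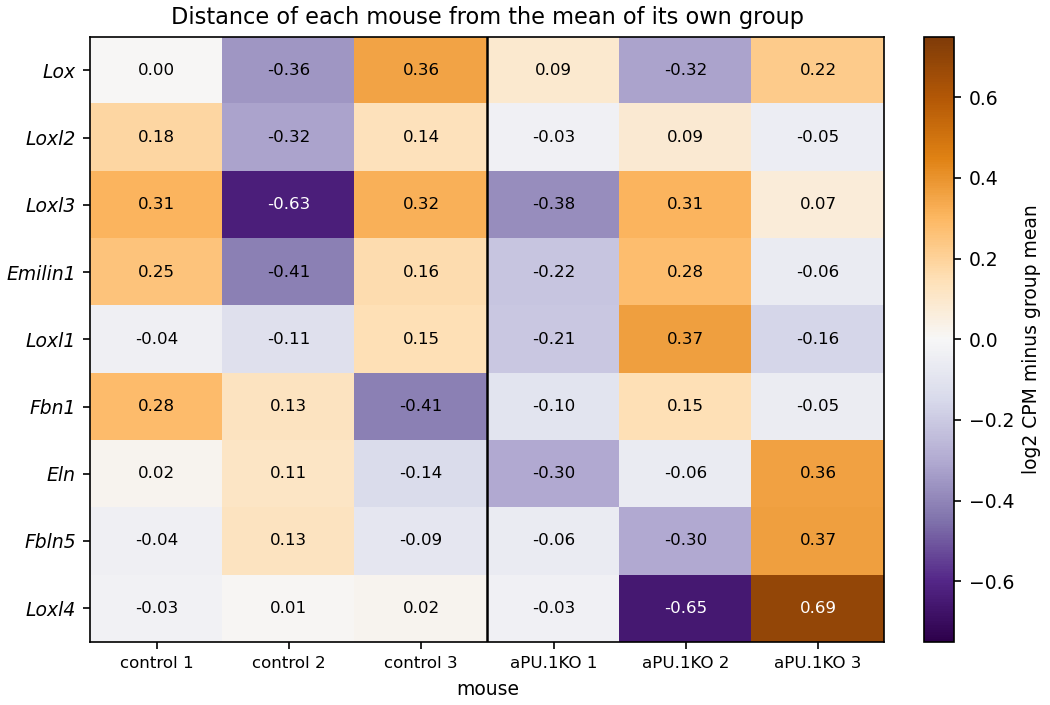
Log2 CPM of each member in each mouse minus the mean of that mouse's own group (color and printed value), control left of the line and aPU.1KO right of it. Control mouse 2 is low for Lox, Loxl2, Loxl3 and Emilin1 but not for Fbn1, Eln and Fbln5, and aPU.1KO mouse 3 is high for Eln, Fbln5 and Loxl4.

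The standard deviation within groups was 0.20 for Loxl2, 0.27 for Fbn1 and 0.47 for Loxl4 on the log2 scale, while the median gene of average log2 CPM of at least 1 had 0.16. All 9 members tested were thus more variable between mice of a group than the median gene, and 63.1% to 90.2% of genes varied less. The most variable members were Loxl4 and Loxl3, and the least variable was Loxl2.

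The genes whose values over the 6 mice ran closest to those of Loxl2, by the root mean square difference of centred log2 CPM among 11884 genes, were Adgre4 (0.13), Ces2g (0.15), Mrc1 (0.15), Gfpt2 (0.17) and Frmd4b (0.20), where the median gene was at 0.93. Adgre4 and Mrc1 encode surface receptors of macrophages. Closest to Fbn1 were Fn1 (0.24), which encodes fibronectin, the matrix protein on which fibrillin assembles, then Ces2g (0.27), Adgrd1 (0.28), Smpd3 (0.28) and Dnm1 (0.29). Loxl2 and Fbn1 were at 0.30 from each other. Of the other members, Emilin1 was nearest to both, at 0.35 from Loxl2 and 0.50 from Fbn1, and Loxl4 was farthest, at 0.75 and 0.81. These are descriptions over 6 libraries that share the contrast of the groups.

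The partners of the elastic fiber were read from a list of 40 genes for microfibril-associated proteins, other fibulins and Emilins, latent TGF-β binding proteins, ADAMTS-like proteins and integrins. Of the 35 tested, 30 had a negative log2 fold change with a median of -0.51, and at an unadjusted p below 0.05 there were 16 lower genes and 0 higher, beside 13.7% and 11.9% of all genes tested. None passed at an adjusted p below 0.05 in edgeR, and DESeq2 called 13 lower, beside 7.87% of all genes. The same shares over all genes stand beside the counts of the next 2 lists. The lowest was Fbln7, a fibulin, at 4.06, 0.832 and 4.60 CPM in the control and 0.508, 0.633 and 0.284 CPM in the aPU.1KO mice (log2 fold change -2.74, standard error 0.68, adjusted p = 0.0868 in edgeR).

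Mgp, an inhibitor of calcification of elastic tissue, had a log2 fold change of -2.08 with groups that overlapped, since control mouse 2 at 4.33 CPM was below aPU.1KO mouse 1 at 4.88 CPM. Mfap2, which encodes a microfibril protein that binds fibrillin, was at 1.75, 1.44 and 1.59 CPM in the control and 0.407, 0.362 and 0.474 CPM in the aPU.1KO mice (log2 fold change -1.94, adjusted p = 0.0714 in edgeR). Fbln1 had a log2 fold change of -1.40 (adjusted p = 0.0773 in edgeR). At the other end were Adamtsl2 at 0.65, Emilin2 at 0.32 and Thsd4 at 0.29, with groups that overlapped. Each of these 3 values turned negative in at least 1 fit with a mouse left out, to -0.82 for Adamtsl2, -0.04 for Emilin2 and -0.41 for Thsd4, and Adamtsl2 was at 31.1 CPM in aPU.1KO mouse 3 against 6.05 and 3.80 CPM in the other aPU.1KO mice.

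The second list held 29 genes that activate lysyl oxidases, load them with copper, present their substrates or control their transcription. Of 27 tested, an unadjusted p below 0.05 was reached by 13 lower genes and 0 higher, none passed in edgeR after adjustment, and DESeq2 called 9 lower; the median log2 fold change was -0.47. Pcolce, the enhancer of procollagen processing by BMP1, was at 34.5, 14.8 and 42.8 CPM in the control and 5.39, 9.63 and 10.8 CPM in the aPU.1KO mice (log2 fold change -1.83, standard error 0.43, adjusted p = 0.0792 in edgeR). Fn1 was at 183.0, 137.4 and 102.3 CPM and at 44.4, 36.5 and 50.3 CPM (log2 fold change -1.69, standard error 0.23, adjusted p = 0.0627 in edgeR). Plod2, a lysyl hydroxylase, had a log2 fold change of -1.25 without overlap. For Tnc, tenascin-C, it was -0.95 with groups that overlapped. The copper chaperone Atox1 (0.03), Tgfb3 (0.12) and the transcription factor Srf (0.37) were highest in the list and overlapped between the groups, and Atox1 reached -0.12 with a mouse left out.

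The third list, of proteases that cut elastin and their inhibitors, went in both directions. Of 14 tested, an unadjusted p below 0.05 was reached by 9 lower genes and 2 higher, none passed in edgeR after adjustment, and DESeq2 called 8 lower and 1 higher; the median log2 fold change was -1.52. Mmp12, the macrophage elastase, was at 296.4, 34.5 and 280.7 CPM in the control and 43.7, 2.21 and 31.1 CPM in the aPU.1KO mice, which overlapped at control mouse 2 (log2 fold change -2.99). Ctss, cathepsin S, was at 279.7, 51.3 and 274.9 CPM and at 35.1, 9.58 and 37.7 CPM (log2 fold change -2.88, adjusted p = 0.0911 in edgeR). Serpina1b had a log2 fold change of -2.01 and Ctsk, cathepsin K, of -1.83, with no overlap.

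Near the other end of the list, Elane, which encodes neutrophil elastase, was at 0.98 but below 1.3 CPM in every mouse. Timp3 at -0.14 overlapped and reached 0.08 with a mouse left out. Over the 3 partner lists, 76 genes were tested, and the 0 called lower after adjustment in edgeR became 21 without control mouse 2, a fit in which 6.93% of all genes tested were called lower against 0.18% with all mice.

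**Figure D5:**
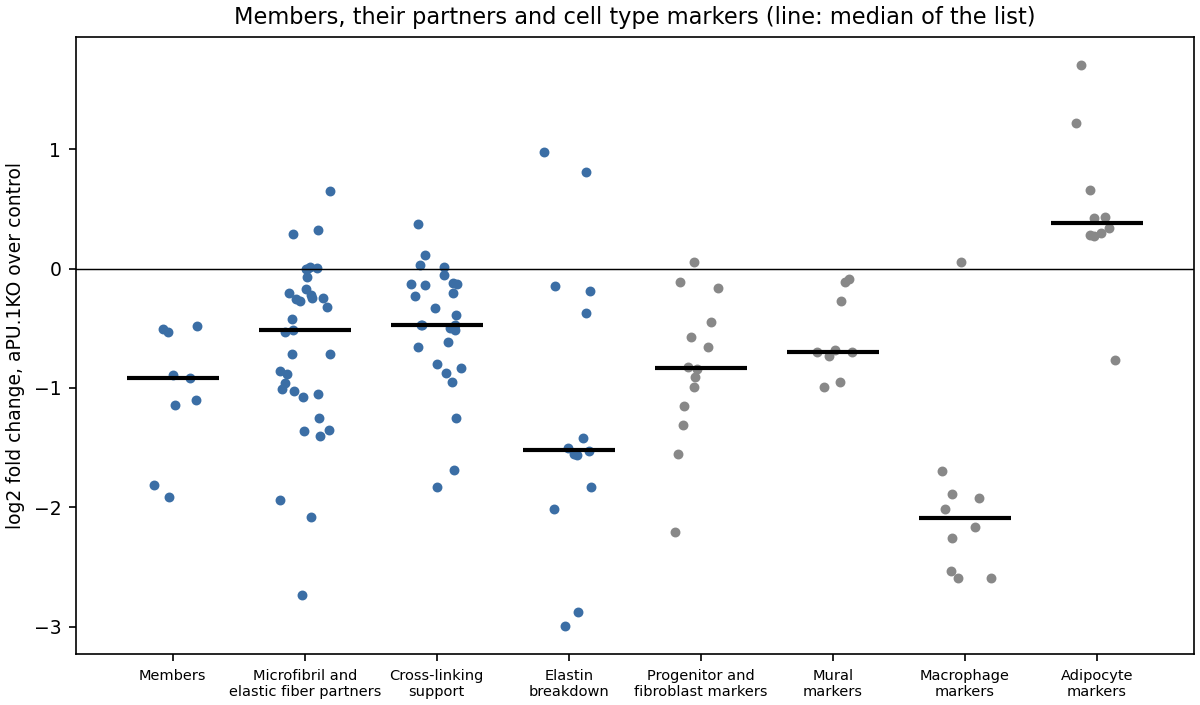
Log2 fold change of aPU.1KO over control for each gene tested among the members, the 3 lists of their partners (blue) and 4 lists of cell type markers (grey), with the median of each list as a bar. The medians are -0.91 for the members, -0.51, -0.47 and -1.52 for the partner lists, -0.83 for progenitor and fibroblast, -0.70 for mural, -2.09 for macrophage and 0.38 for adipocyte markers.

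Sums of progenitor and fibroblast, macrophage and lymphocyte markers were lower in the aPU.1KO mice without overlap. Those of mural, endothelial and mesothelial markers overlapped. The 14 progenitor and fibroblast markers summed to 2803, 2435 and 2570 CPM in the control and to 1715, 1592 and 2017 CPM in the aPU.1KO mice, without overlap. Of these markers 13 had a negative log2 fold change, with Lum at -2.21 and Pdgfra at -1.55, while Col15a1, with the highest CPM of the list, was at -0.11. None passed at an adjusted p below 0.05 in edgeR, 7 were lower at an unadjusted p below 0.05 (13.7% of all genes), and DESeq2 called 7 (7.87% of all genes). Lum and Pdgfra had the lowest values of the list, whose median was -0.83. The log2 fold changes of Loxl2 and Fbn1 lay between these, and so below every marker of the list apart from Lum. Those of the other 7 members tested were nearer 0 than that of Pdgfra. The part of these cells in the difference of the members was not tested.

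The 10 macrophage markers summed to 1433, 447.0 and 1392 CPM in the control and to 317.7, 233.1 and 295.7 CPM in the aPU.1KO mice. Of these, 9 were lower at an unadjusted p below 0.05, beside 13.7% of all genes, and Mrc1 also after adjustment in edgeR (adjusted p = 0.0389), beside 0.18% of all genes. Adgre1 had a log2 fold change of -2.60, Fcgr1 of -2.59 and Lyz2, with the highest CPM, of -2.26. The remaining marker, Mertk, had a positive log2 fold change and groups that overlapped. Control mouse 2, with the lowest macrophage sum of the control, was also the control mouse with the lowest Lox, Loxl1, Loxl2, Loxl3 and Emilin1, but it had more Fbn1 than control mouse 3 and the most Eln and Fbln5 of its group. Without control mouse 2 the log2 fold change was -1.96 for Loxl2 and -1.87 for Fbn1, and 5 members (Lox, Loxl2, Loxl3, Fbn1 and Emilin1) had an adjusted p below 0.05 in edgeR. In that fit 6.93% of all 14306 genes tested were called lower, so that the number of calls was larger over all genes as well. The part of macrophage RNA in the values of the members was not tested.

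The sums of the 10 mural markers, of cells that also make elastin, overlapped at 581.1 to 849.0 CPM in the control and 451.7 to 585.7 CPM in the aPU.1KO mice. All 9 mural markers tested had a negative log2 fold change, and 6 were lower without overlap (15.5% of all genes). At an unadjusted p below 0.05 in edgeR 6 were lower (13.7% of all genes), and DESeq2 called 5 lower (7.87% of all genes). Rgs5, with the highest CPM, had a log2 fold change of -0.70, Notch3 of -0.99 and Pdgfrb of -0.95 (adjusted p = 0.0491 in edgeR). The endothelial sums overlapped at 675.7 to 970.7 and 401.4 to 861.3 CPM, with Cdh5, highest in mean CPM over the 6 mice, at -0.61 and Vwf at -0.78. The mesothelial sums, 5.83 to 24.7 and 8.90 to 11.4 CPM with Upk3b highest in CPM, overlapped too. Lymphocyte markers summed to 4.42 to 7.61 and 2.29 to 3.88 CPM, without overlap, with Cd8a at -1.79 and Cd79a at -0.68. Within the adipocyte list the log2 fold change was 1.71 for Cfd, 1.22 for Retn and 0.30 for Cidec, which had the highest mean CPM over the 6 mice, while Lep was at -0.77. None of these lists held a marker at 0 in all 6 libraries, and their part in the values of the members was not tested.

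The start sites of 4 members, Fbn1, Emilin1, Fbln5 and Loxl4, were searched for the letters GAGGAA, the core that PU.1 binds, on both strands of the 250 bases before the RefSeq start (GRCm38.p6). Those of the other 6 members, Loxl2 among them, were not analysed here. Emilin1 held the core once on the plus strand, beginning 113 bases before the start. It is shown in capitals with 12 bases on each side, a stretch of 30 bases at chr5:30913661-30913690. These bases lie in an exon that the GENCODE annotation gives to Emilin1. The windows of Fbn1, Fbln5 and Loxl4 did not hold these letters, and 23.3% of 32851 windows of the same length did. All 250 bases of the Fbn1 window lay in annotated exons of Fbn1 and Gm9913, and all 250 of the Emilin1 window in exons of Emilin1. Sequence before the GENCODE start of Fbn1 was thus not searched. The match is a description of the sequence.
Emilin1: caggagcctgagGAGGAAagaggaggggga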

How the data were processed

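RNA of the epididymal adipocyte fraction was sequenced in 3 control and 3 aPU.1KO mice. Per the labels and methods, the authors quantified reads with Salmon on GRCm38 and summed transcripts to genes, and the deposited values are estimated counts, whole numbers without normalization; the Salmon version, annotation release, read length and strandedness were not given in the sources used here. Totals were between 20550252 and 69283842 counts per library, so low genes such as Loxl3 and Fbn2 are the least precise. Libraries were matched to mice by the number in each label and are numbered within a group in that order. No pair of libraries within a group was a duplicate (the chi-square of their counts was at least 20.4 per degree of freedom).

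The members, lists and alternatives were chosen with earlier results of these data known. Of 35122 genes, 35031 were matched to a symbol in GENCODE M21, and the rest hold 0.0367% of counts. CPM are counts per 1000000 of TMM-scaled library size. The main test was the quasi-likelihood test of edgeR 4.0.16 in R 4.3.3, two-sided, with filterByExpr, TMM factors and Benjamini-Hochberg adjustment over 13925 genes. Log2 fold changes set aPU.1KO over control. Alternatives were DESeq2 1.42.0, limma-voom (limma 3.58.1), other scaling, filters and dispersion settings, control library 1 thinned to 22770714 counts, and leaving out each mouse. An exact permutation of 3 against 3 cannot reach a two-sided p under 0.1. A library with 3 counts or fewer was taken as at the floor. Log2 CPM for likeness and deviations used a prior count of 2. Levels per kilobase used merged exons of GRCm38. Coding sequences were aligned with MAFFT, and motifs were searched in 250 bases before each RefSeq start.

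Beside the 10 members, the genes named are the 4 with the lowest and the 3 with the highest log2 fold change of each partner list, the gene with the highest mean CPM over the 6 mice in each marker list with the 2 of largest change where its groups did not overlap, the 5 genes most like Loxl2 and the 5 most like Fbn1, and Spi1. Genes that overlap a member and members of lists named without values are additional, as is Lep, which was added after its values were seen. A result that this rule would name is not reported here. Tested on simulated data for 13925 genes, edgeR recovered 56 of 108 genes changed by 1 and 80 of 92 changed by 2 on the log2 scale, with 12 false calls, and DESeq2 recovered 70 and 82 with 54 false calls. The simulated counts were drawn independently for each gene, with no shift shared by the genes of a mouse. These rates therefore do not measure recovery or false calls in the real libraries.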

Additional observations from a re-analysis of the deposited data

How the results depend on the processing

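All 9 members tested had a negative log2 fold change in each of 15 alternatives. The count of members lower at an adjusted p below 0.05, 2 in edgeR, was 6 with DESeq2 and between 0 and 5 with a mouse left out: 0 without control mouse 1 or any of the aPU.1KO mice, 1 without control mouse 3 and 5 without control mouse 2. It was 2 in the other 8 alternatives. The count of partner genes, 0, was 5 with no filter on low counts, 30 with DESeq2 and between 0 and 21 with a mouse left out, 21 being without control mouse 2. Over all genes, edgeR called 25 lower and 8 higher, DESeq2 1267 and 600, the fit with no filter 125 and 21, and the fit without control mouse 2 991 and 202; without control mouse 1 it called 0 and 0. The cause of these changes was not tested. Scaling moved no direction: the median of all genes was between 0.00 and 0.01 with RLE and upper quartile factors. The lowest and highest adjusted p over all alternatives were 0.00208 and 0.313 for Lox, 0.0341 and 0.412 for Loxl3, 0.000362 and 0.313 for Eln, and 0.000191 and 0.313 for Emilin1. No paired analysis was possible because the labels number each mouse separately and do not tie control and aPU.1KO littermates to each other. The values of Loxl3 rest on as few as 25 counts, and those of Fbn2 on 7 or fewer, so these are the least precise.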
